A study of Homo sapiens with 54 samples.

Results

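Deoxynucleotide synthesis enzymes make and balance the dNTPs that DNA polymerases consume. The 9 enzymes described here are RRM1 and RRM2 (the subunits of ribonucleotide reductase), TYMS, DUT, DTYMK and TK1 (the thymidylate branch), DCK (deoxycytidine kinase), CTPS1 (CTP synthase) and DCTPP1 (a pyrophosphatase that clears unwanted dCTP and modified dCTP). They were picked out by symbol, as a pathway chosen with earlier results of these data known, and all 9 were found among the 33119 genes of the counts. Ribonucleotide reductase removes the 2′ hydroxyl of ribonucleoside diphosphates and supplies all 4 DNA precursors. DUT turns dUTP into dUMP, TYMS methylates dUMP to dTMP with a folate cofactor, DTYMK phosphorylates dTMP, and TK1 makes dTMP from salvaged thymidine. Several of these genes are known to be transcribed mainly in cells that prepare or carry out S phase, so their RNA in a bulk culture follows the share of cycling cells as well as the RNA in each cell, and fewer cycling cells and less RNA per cell cannot be told apart in these data.

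The study sequenced RNA from 6 established human cancer cell lines given a kinase inhibitor or kept as controls, with 3 libraries in each of 18 groups. The lines were BT-474 and BT-20 (breast), NCI-N87 and MKN-45 (stomach) and SW48 and SW620 (colorectal). The drugs were afatinib, which blocks EGFR and the other ERBB receptor kinases, palbociclib, which blocks the cyclin D-dependent kinases CDK4 and CDK6, and trametinib, which blocks the kinase MEK below RAS and RAF. Set 1, the first deposited table, holds SW48 with trametinib, SW48 controls, SW620 with trametinib and SW620 controls (12 libraries). Set 2, the second table, holds BT-474, BT-20, NCI-N87 and MKN-45, each with afatinib and as controls, and SW48 and SW620, each with palbociclib, with trametinib and as controls (42 libraries). No dose, exposure time, vehicle or separate culture is given, so p-values measure the spread between the libraries of a group, which may be technical. Levels are CPM, that is counts scaled to a common library size with TMM factors. Counts were not corrected for transcript length, so levels are compared between samples and not between genes. A gene was called when its adjusted p was under 0.05 by edgeR's quasi-likelihood test, with Benjamini-Hochberg adjustment over all genes tested in that comparison.

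The promoters of 4 of the enzymes are shown because they belong to the enzymes whose RNA moved most with afatinib in BT-474 (DUT, TK1, RRM2) and to the one that moved least there (DCTPP1). Each is a RefSeq window of GRCh38.p14 from 250 bases before to 50 bases after an annotated start, written 5′ to 3′ on the gene's own strand. The DUT window is chr15:48331947-48332246 on the + strand. The TK1 window is chr17:78187003-78187302 on the - strand. The RRM2 window is chr2:10122489-10122788 on the + strand, and the DCTPP1 window is chr16:30429751-30430050 on the - strand. Capitals mark matches, on either strand, to TTTNNCGC (the core of E2F sites; GCGNNAAA on the other strand) or to CCAAT (the box bound by NF-Y; ATTGG on the other strand). No E2F match overlapped a CCAAT match in these windows.
DUT: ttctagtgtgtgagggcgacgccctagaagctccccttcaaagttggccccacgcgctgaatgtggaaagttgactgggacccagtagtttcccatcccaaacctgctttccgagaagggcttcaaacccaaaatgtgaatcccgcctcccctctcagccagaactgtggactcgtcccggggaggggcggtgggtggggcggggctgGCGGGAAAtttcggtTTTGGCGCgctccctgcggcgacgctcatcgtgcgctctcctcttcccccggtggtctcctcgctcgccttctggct
TK1: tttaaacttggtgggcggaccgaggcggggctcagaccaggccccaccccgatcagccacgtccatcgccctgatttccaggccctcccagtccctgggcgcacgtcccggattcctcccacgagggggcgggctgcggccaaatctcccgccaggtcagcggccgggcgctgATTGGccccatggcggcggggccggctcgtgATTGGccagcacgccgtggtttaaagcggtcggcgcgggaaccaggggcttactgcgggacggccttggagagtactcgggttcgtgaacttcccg
RRM2: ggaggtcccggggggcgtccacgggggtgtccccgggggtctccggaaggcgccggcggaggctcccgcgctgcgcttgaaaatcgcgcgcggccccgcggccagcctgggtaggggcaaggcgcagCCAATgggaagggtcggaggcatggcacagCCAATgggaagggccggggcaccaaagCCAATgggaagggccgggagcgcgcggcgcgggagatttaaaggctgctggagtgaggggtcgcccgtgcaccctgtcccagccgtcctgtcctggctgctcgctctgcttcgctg
DCTPP1: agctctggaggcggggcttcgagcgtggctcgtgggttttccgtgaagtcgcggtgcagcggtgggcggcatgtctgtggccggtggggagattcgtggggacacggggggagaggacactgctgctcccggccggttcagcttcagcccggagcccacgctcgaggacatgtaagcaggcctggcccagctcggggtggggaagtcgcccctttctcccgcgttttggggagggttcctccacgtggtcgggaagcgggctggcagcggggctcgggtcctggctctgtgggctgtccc
RefSeq gives 4 windows for DUT and 2 for TK1, and the ones printed are those that hold matches; the other 3 of DUT hold no E2F match and the other of TK1 holds no CCAAT match. In the printed DUT window the 2 E2F matches began 42 and 27 bases before the start. The 2 CCAAT matches in TK1 began 77 and 46 bases before the start, and the 3 in RRM2 began 123, 93 and 66 bases before it. The DCTPP1 window held neither run of letters.  It held CACGTG (an E-box), which was searched as well and is not in capitals, 9 bases before the start. On its - strand the DCTPP1 gene begins at base 30430075 in GENCODE 29, so this window lies wholly inside the gene. Bases before that outer start of DCTPP1 were not searched, and the lack of matches holds for this window alone. The printed DUT and RRM2 windows also lie inside their genes, which begin there at bases 48331011 and 10120698. The printed DUT window also held TTTGAA (named CHR) on the other strand, 214 and 129 bases before the start. Over the 15 RefSeq windows of the 9 enzymes, the E2F letters occurred in 3 (20%; DCK, DUT and TYMS), against 6.89% of the 35116 windows of all genes. The CCAAT letters occurred in 5 windows (33.3%; DTYMK, RRM1, TK1 and both of RRM2), against 34.6% of all windows. Of the other letters searched, TTTGAA occurred in 2 windows (13.3%, DUT and RRM1), against 15.2% of all windows. CACGTG occurred in 2 (13.3%, DCK and DCTPP1), against 7.26%, and TGATGNAA in 0, against 3.62%. These counts describe letters in a window, several of the windows belong to 1 gene, and binding was not measured.

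The libraries held 3401565 to 12806042 counts each, with the fewest in NCI-N87 given afatinib (3401565 to 5675326). Of the genes known to mark these lines, ERBB2 reached 1158 CPM in BT-474 controls and 1933 CPM in NCI-N87 controls, EGFR 435 CPM in BT-20 controls and MET 1257 CPM in MKN-45 controls. VIL1, an intestinal marker, was near 0 in SW48 controls (0.250 CPM in set 1, 0.202 CPM in set 2), where CDX2, an intestinal transcription factor, was at 75.8 CPM (set 1) and 95.7 CPM (set 2). The sets differed within a line: ERBB2 was 990 CPM in SW48 controls of set 1 and 99.5 CPM in those of set 2. SW620 controls had 78.2 CPM of GATA3 and 2.78 CPM of CDX2 in set 1, but 6.19 CPM of GATA3 and 33.7 CPM of CDX2 in set 2. Lines are named as labelled, whether the sets hold the same cells under a name was not tested, and the set 1 results rest on those labels. The sets were therefore analysed apart. SW620 control 3 of set 1 stood apart from its group, with a correlation over genes of 0.798 with the mean of its 2 mates. The others had 0.927 each, with control 3 among their mates. Results of trametinib in SW620, set 1, are therefore given with and without control 3.

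TYMS could not be tested in any comparison. Thymidylate synthase, the target of fluorouracil, had 0 to 14 counts per library (median 3), 176 counts in all 54 libraries together, and 0 in 13 of them. Its last exon (hg38, chromosome 18, bases 672860 to 673578, + strand, 719 bases) lies entirely, 100%, within exons of ENOSF1 on the - strand in GENCODE 29. The strand setting of the authors' counting is not given in the sources used here, so reads from TYMS and from ENOSF1 cannot be told apart, and how far this overlap set the TYMS counts was not tested. RRM1 shares 63 bases (9.24%) of its last exon with its antisense gene RRM1-AS1. The last exons of the other 7 enzymes overlap no annotated exon of another gene. In BT-474, TYMS had 0 counts in all 3 afatinib libraries and 5, 2 and 0 counts in controls, where a count of 0 allows up to 3 counts in a library (counting error only). ENOSF1, named after its values were seen, fell with palbociclib in SW48, with 27.3, 37.4 and 41.7 CPM with palbociclib and 49.6, 58.5 and 51.8 CPM in controls (log2 fold change -0.60, adjusted p = 0.00072). In SW620 it had 33.4, 30.1 and 44.9 CPM with palbociclib and 71.8, 84.0 and 65.3 CPM in controls (-1.01, adjusted p = 0.00043). The remaining 8 enzymes passed the filter on low counts in every comparison.

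**Figure D1:**
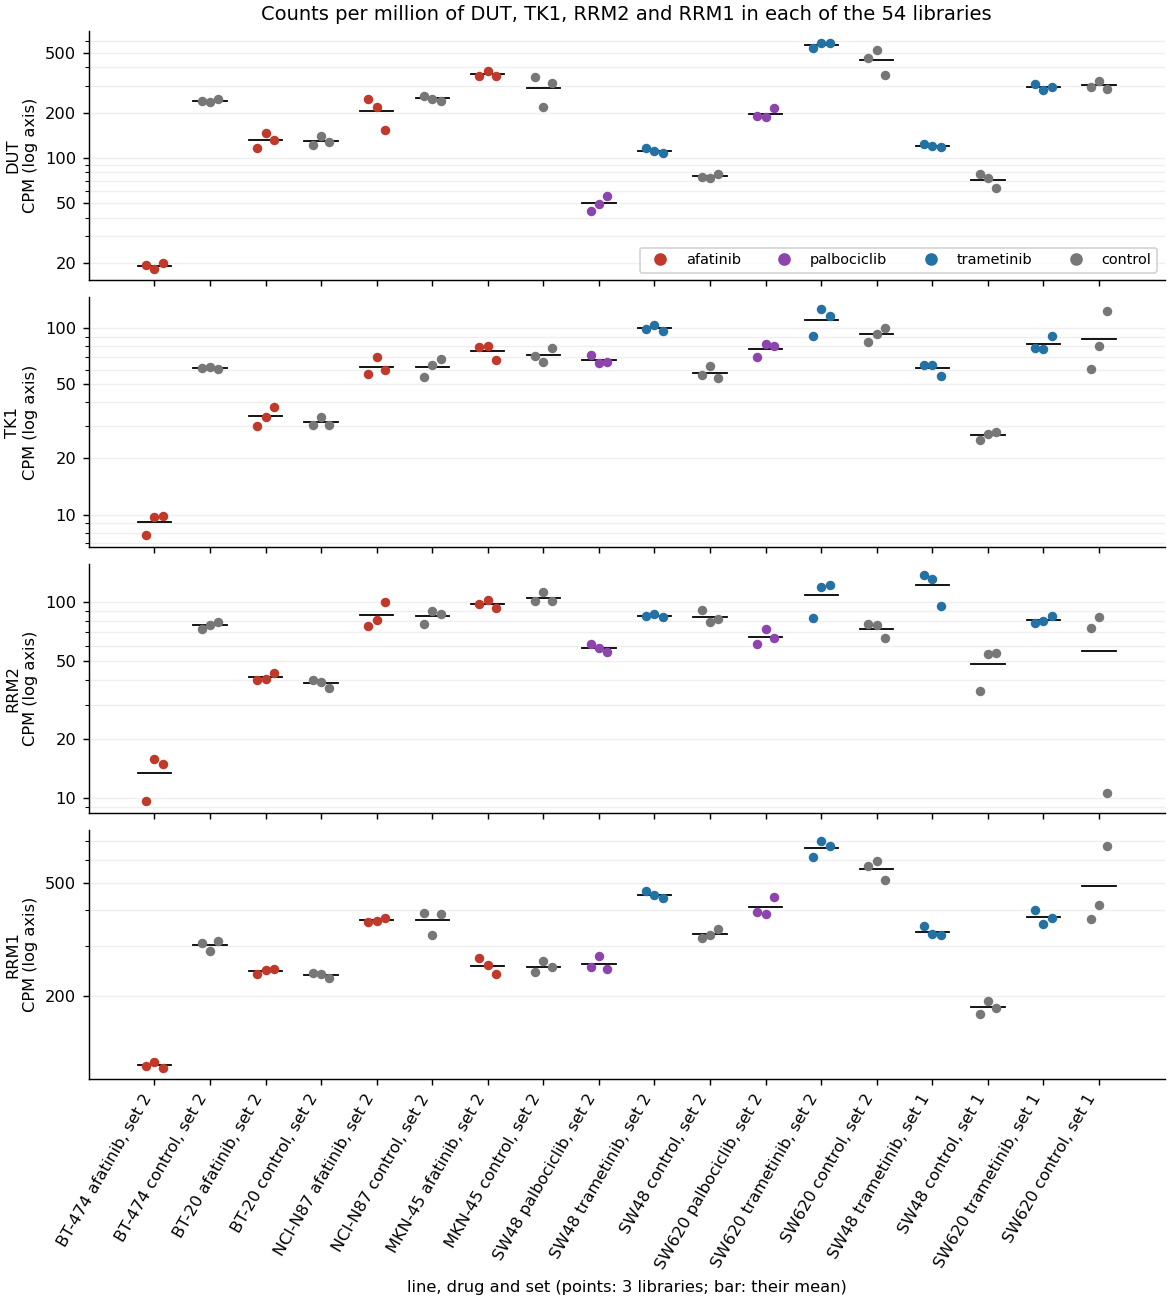
CPM (log axes) of DUT, TK1, RRM2 and RRM1 in each of the 54 libraries, grouped along the horizontal axis by line, drug and set; points are the 3 libraries of a group and the bar is their mean. DUT in BT-474 lies at 18.2 to 19.9 CPM with afatinib and at 235 to 248 CPM in controls, and 1 SW620 control of set 1 lies at 10.7 CPM for RRM2.

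Afatinib in BT-474, an ERBB2-rich breast line, lowered every enzyme that could be tested. All 8 fell, with a median log2 fold change of -1.41, beside 0.01 over the 12768 genes tested. Of those genes 21.8% were called lower and 20.9% were called higher, and 42.7% in all. In each of the 8 the 3 afatinib libraries lay below the 3 control libraries, an arrangement that 26.4% of all genes tested showed.

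DUT, the dUTPase (hg38, chromosome 15, 48331011 to 48343373, + strand), had 19.3, 18.2 and 19.9 CPM with afatinib in BT-474, against 238, 235 and 248 CPM in controls. The mean was 19.1 ± 0.866 CPM with afatinib and 240.2 ± 6.53 CPM in controls (SD, n = 3 each). The log2 fold change was -3.64 (SE 0.07, adjusted p = 1.4e-11, edgeR), that is 12.5-fold lower. DUT ranked 16 from the lowest of the 12768 genes by log2 fold change. TK1, the cytosolic thymidine kinase (chromosome 17, 78174075 to 78187233, - strand), had 7.74, 9.69 and 9.85 CPM with afatinib, against 61.5, 62.3 and 60.2 CPM in controls. Its log2 fold change of -2.74 (SE 0.11, adjusted p = 2.2e-09, edgeR) was the next in size among the enzymes.

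The small subunit RRM2 (chromosome 2, 10120698 to 10131419, + strand) carries the radical of ribonucleotide reductase. It had 9.63, 15.9 and 14.9 CPM with afatinib in BT-474, against 73.1, 76.0 and 79.5 CPM in controls (log2 fold change -2.49, SE 0.14, adjusted p = 4.3e-08). The large subunit RRM1 (chromosome 11, 4094707 to 4138876, + strand) holds the catalytic and allosteric sites. It had 114, 117 and 112 CPM with afatinib, against 306, 289 and 312 CPM in controls (log2 fold change -1.39, SE 0.06, adjusted p = 6e-09). RRM2B, the p53-inducible subunit that can stand in for RRM2 outside S phase, had 33.9, 30.4 and 38.4 CPM with afatinib, against 31.1, 33.1 and 26.5 CPM in controls. The RRM2B groups overlapped, and its log2 fold change of 0.19 was not called (SE 0.11, adjusted p = 0.21).

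DTYMK, which makes dTDP from dTMP (chromosome 2, 241675742 to 241686991, - strand), had 22.01, 18.3 and 21.3 CPM with afatinib in BT-474, against 54.8, 59.5 and 52.6 CPM in controls (log2 fold change -1.43, adjusted p = 3.4e-07). DCK, which phosphorylates salvaged deoxycytidine (chromosome 4, 70992538 to 71030914, + strand), had few counts: 22, 18 and 20 with afatinib, against 44, 55 and 39 in controls (log2 fold change -0.92, SE 0.24, adjusted p = 0.009). CTPS1, the glutamine-using CTP synthase (chromosome 1, 40979335 to 41012565, + strand), had 14.96, 15.6 and 13.96 CPM with afatinib, against 27.6, 27.3 and 25.8 CPM in controls (log2 fold change -0.85, adjusted p = 5.7e-05). DCTPP1 (chromosome 16, 30423619 to 30430075, - strand) changed least, with 46.8, 48.4 and 44.5 CPM with afatinib and 59.6, 56.7 and 59.8 CPM in controls (log2 fold change -0.33, SE 0.08, adjusted p = 0.0063). The 8 enzymes thus spanned -3.64 to -0.33 on the log2 scale within 1 comparison.

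Genes around this pathway were described from lists that were chosen with earlier results of these data known. In BT-474 with afatinib, all 18 DNA replication genes fell (median log2 fold change -1.36), led by CDC45 (-2.67), GINS2 (-2.57) and FEN1 (-2.28), a helicase cofactor, a GINS subunit and the flap nuclease. All 10 G2/M genes fell as well (median -2.72), led by KIF20A (-3.69), PLK1 (-3.53) and AURKB (-3.33), a mitotic kinesin and mitotic kinases. Of 10 cell cycle regulators 8 fell, led by MYBL2 (-3.12), E2F1 (-2.52) and FOXM1 (-2.40), and none rose. Of 6 folate enzymes that feed TYMS 4 fell and 1 rose.

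Of 13 salvage and turnover genes tested in the same libraries, 3 fell, none rose and 10 were not called, with a median log2 fold change of 0.0003, near the 0.01 of all genes tested, of which 21.8% fell. The 3 were NUDT1 (-3.11), which hydrolyses oxidised purine dNTPs, PNP (-0.77), the purine nucleoside phosphorylase, and ITPA (-0.46), which hydrolyses inosine triphosphate. Of 11 purine synthesis genes 7 fell and 1 rose (median -0.38), with GART at -0.74. Of the 3 early pyrimidine genes only UMPS was called (-0.62). Of 8 nucleotide kinases and thiol reductants tested, 5 fell, among them NME1 (-0.70), a nucleoside diphosphate kinase. Of the markers of the line, ERBB2 averaged 1087 CPM with afatinib and 1158 CPM in controls, and GATA3 averaged 304 CPM with afatinib and 292 CPM in controls. ESR1, a further marker of the line, was higher with afatinib, at 44.3 CPM (41.6 to 48.9) against 25.8 CPM (24.0 to 28.8) in controls.

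**Figure D2:**
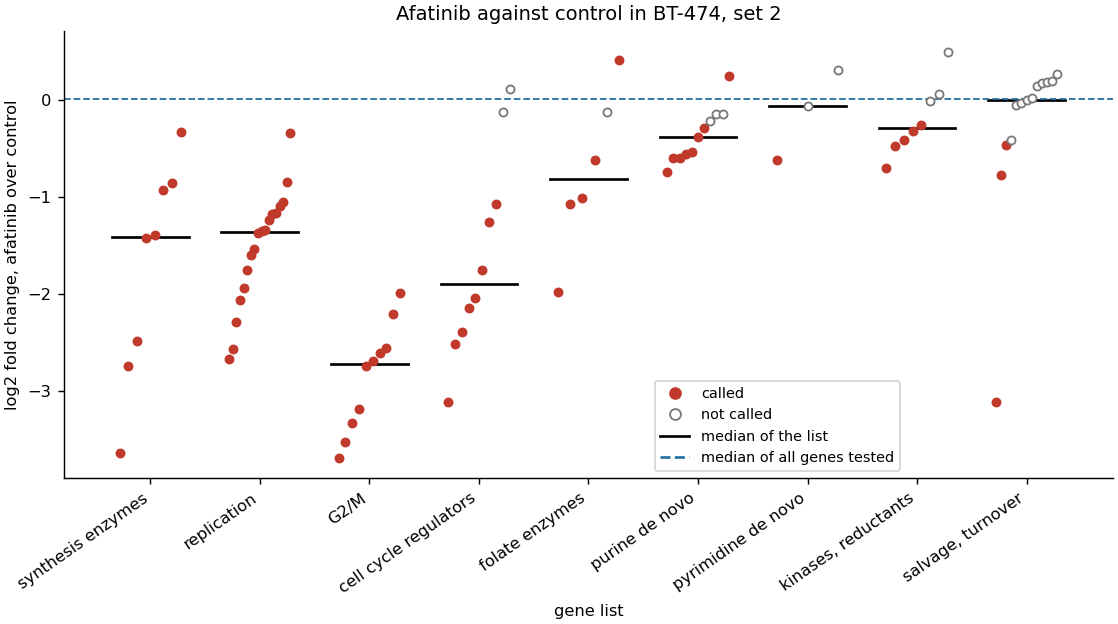
Log2 fold change (vertical axis, afatinib over control) of each gene of 9 lists in BT-474, set 2; filled points were called, open points were not, black bars are list medians and the dashed line is the median of all genes tested. The synthesis enzymes (median -1.41) lie beside the replication genes (-1.36) and below the salvage and turnover genes (0.0003).

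Afatinib gave no called enzyme in the other 3 lines. In BT-20, a breast line with high EGFR, 0 of 8 were called, where 0.585% of 12810 genes were. The enzyme with the smallest adjusted p was CTPS1, with 34.6, 26.8 and 33.8 CPM with afatinib and 24.1, 24.8 and 24.9 CPM in controls (log2 fold change 0.38, SE 0.11, adjusted p = 0.17). DUT had 116, 146 and 131 CPM with afatinib, against 122, 140 and 128 CPM in controls, with overlapping groups. DCK had 23, 24 and 25 counts with afatinib, against 45, 36 and 29 counts in controls (log2 fold change -0.47, SE 0.27, adjusted p = 0.51).

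In NCI-N87, an ERBB2-rich stomach line, 0 of 8 enzymes were called, and 0% of all 12472 genes were called by edgeR (1523 had an unadjusted p under 0.05, and DESeq2 called 37). No enzyme separated the afatinib libraries from the controls. DUT had 247, 217 and 152 CPM with afatinib, against 260, 248 and 240 CPM in controls (log2 fold change -0.27, SE 0.17, adjusted p = 0.50). The lowest of these, afatinib library 3, was also the shallowest library of the study, and without it the DUT value was -0.10. The SEs of the 8 log2 fold changes ran from 0.13 (RRM1) to 0.35 (DCK), wider than in BT-474.

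In MKN-45, a MET-rich stomach line, 0 of 8 were called, and 0% of 12358 genes were called by edgeR (664 at an unadjusted p under 0.05, 0 by DESeq2). DUT had 352, 379 and 352 CPM with afatinib, against 348, 218 and 314 CPM in controls (log2 fold change 0.31, SE 0.15, adjusted p = 0.82). The afatinib libraries lay above all controls for DUT and DTYMK, as 6.75% of all genes did. Without control 2, the library lowest for DUT, the DUT value was 0.13 (adjusted p = 0.81).

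The afatinib effect was then compared between lines of 1 tissue by a test of the difference itself. Between the breast lines, 7 of 8 enzymes had a lower effect in BT-474 than in BT-20, where 23.8% of 14019 genes differed in either direction and 13.6% were lower in BT-474. The differences on the log2 scale, BT-474 minus BT-20, were -3.68 for DUT, -2.87 for TK1, -2.62 for RRM2 and -1.46 for RRM1, with adjusted p from 2.8e-12 (DUT) to 9.6e-09 (RRM2). DCK was the exception, with a difference of -0.47 (SE 0.36, adjusted p = 0.37). Between the stomach lines 0 of 8 differed, as did 0.0145% of 13791 genes (0.00725% in each direction).

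Palbociclib was given to the colorectal lines SW48 and SW620 in set 2. It lowered RRM1 and DUT in both lines, while the other enzymes moved in 1 line or in neither. In SW48, 6 of 8 enzymes were called, 5 lower and 1 higher, where 57.5% of 12690 genes were called (29.2% lower, 28.3% higher). In SW620, 3 of 8 were called, all lower, where 35% of 13068 genes were called (17.4% lower). The median log2 fold change of the 8 was -0.41 in SW48 and -0.18 in SW620, beside 0.01 and 0.002 over all genes tested.

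DUT had 44.5, 49.4 and 56.1 CPM with palbociclib in SW48, against 74.5, 73.1 and 78.5 CPM in controls (log2 fold change -0.60, SE 0.09, adjusted p = 2.7e-05). In SW620, DUT had 189, 186 and 213 CPM with palbociclib, against 459, 526 and 355 CPM in controls (log2 fold change -1.17, SE 0.13, adjusted p = 7.3e-05). The groups did not overlap in either line, an arrangement (palbociclib lower) that 31.9% of all genes tested showed in SW48 and 24.1% in SW620. The DUT effect was lower in SW620 than in SW48 by -0.55 (SE 0.17, adjusted p = 0.025). The adjusted p of this difference passed 0.05 when any 1 of 4 libraries was left out, with values of -0.54 to -0.42 for those 4.

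RRM1 had 253, 277 and 249 CPM with palbociclib in SW48, against 320, 327 and 343 CPM in controls (log2 fold change -0.36, adjusted p = 0.00021). In SW620 it had 395, 390 and 444 CPM with palbociclib, against 574, 597 and 511 CPM in controls (log2 fold change -0.43, adjusted p = 0.0031). These 2 effects were not called different (difference -0.06, SE 0.11, adjusted p = 0.71). RRM2 fell in SW48, with 61.3, 58.7 and 55.6 CPM with palbociclib and 90.7, 78.9 and 82.1 CPM in controls (log2 fold change -0.53, adjusted p = 3.4e-05). In SW620 the RRM2 groups overlapped, at 60.9, 72.9 and 65.9 CPM with palbociclib and 77.1, 76.7 and 65.3 CPM in controls (log2 fold change -0.11, adjusted p = 0.43).

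The rest of the thymidylate branch went different ways with palbociclib. TK1 in SW48 had 72.0, 65.4 and 66.0 CPM with palbociclib, against 56.3, 62.8 and 54.2 CPM in controls (log2 fold change 0.22, SE 0.08, adjusted p = 0.026). This call was lost without palbociclib library 1, control 1 or control 3 (0.17 to 0.19), with no filter on low counts (0.19, adjusted p = 0.067) and when 1 fit held all groups (0.23, adjusted p = 0.096). TK1 in SW620 was not called, at 70.0, 82.6 and 80.6 CPM with palbociclib and 84.9, 93.7 and 100 CPM in controls (log2 fold change -0.24, adjusted p = 0.083), although the groups did not overlap. That arrangement, lower with palbociclib, held for 24.1% of all genes tested in SW620. DTYMK fell in SW620, with 86.6, 77.1 and 81.0 CPM with palbociclib and 131, 118 and 97.4 CPM in controls (log2 fold change -0.48, adjusted p = 0.006), and was at 0.05 in SW48 (adjusted p = 0.61).

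CTPS1 and DCTPP1 fell with palbociclib in SW48 and were not called in SW620. CTPS1 had 29.2, 29.5 and 28.9 CPM with palbociclib in SW48, against 43.4, 41.3 and 45.9 CPM in controls (log2 fold change -0.59, adjusted p = 2.6e-05). DCTPP1 had 76.4, 79.4 and 80.8 CPM there, against 113, 107 and 103 CPM in controls (log2 fold change -0.46, adjusted p = 5e-05). In SW620 their log2 fold changes were 0.004 (CTPS1) and 0.07 (DCTPP1). The difference between the lines was called for both, at 0.60 for CTPS1 (adjusted p = 0.0011) and 0.54 for DCTPP1 (adjusted p = 0.00091). In all, 6 of 8 enzymes differed between the lines in the palbociclib effect, 3 lower and 3 higher in SW620, where 25.7% of 14098 genes differed (11.2% lower, 14.6% higher). With 1 library left out this count was 4 to 6. The RRM2 difference (0.43) was not called without SW48 palbociclib 3, SW620 palbociclib 2, SW48 control 1 or SW48 control 3 (0.33 to 0.40), or with all groups in 1 fit (0.39, adjusted p = 0.10), where DTYMK was not called either (-0.56, adjusted p = 0.06). DCK was called in neither line, but in SW48 it was called higher without palbociclib library 3 (0.48, adjusted p = 0.039).

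Around the pathway, 15 of 18 replication genes fell with palbociclib in SW48 (median -0.64) and 12 of 18 in SW620 (median -0.47), and 1 rose in each line. PRIM1, the small primase subunit, led both lists, with -2.59 in SW48 and -2.03 in SW620. G2/M genes fell in 9 of 10 cases in SW48 (median -0.50) and 10 of 10 in SW620 (median -0.79). Of all genes tested, 29.2% were called lower in SW48 and 17.4% in SW620. Among folate enzymes, 4 of 6 fell and 1 rose in each line. MTHFD2, a mitochondrial folate enzyme, had 137 ± 5.36 CPM with palbociclib and 653 ± 39.0 CPM in controls in SW48 (-2.26). Purine synthesis genes fell in 9 of 11 cases in SW48, led by GART (-1.28), and in 7 of 11 in SW620, led by ADSL (-1.17), where 1 rose.

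**Figure D3:**
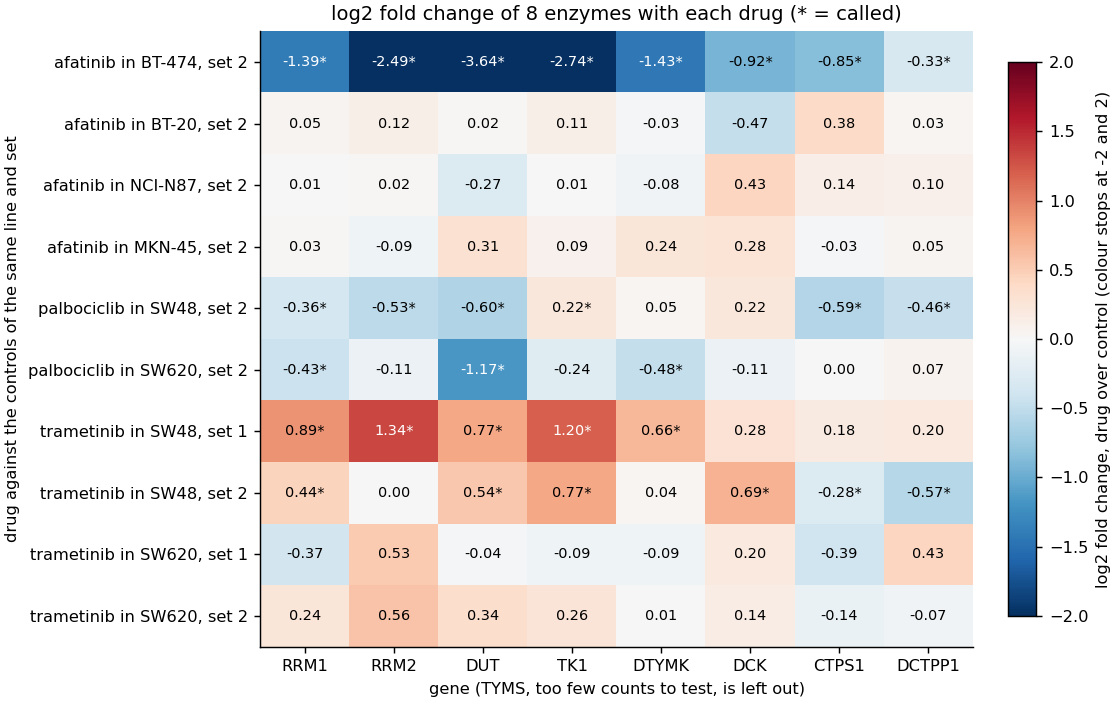
Log2 fold change of the 8 tested enzymes (across) in the 10 comparisons of a drug with controls (down the page), coloured from blue (lower with the drug) to red (higher); stars mark called values and the colour scale stops at -2 and 2. All 8 values in BT-474 are lower and called, and no value in BT-20, NCI-N87, MKN-45 or SW620 with trametinib is called.

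Trametinib in SW48 raised several enzymes in both sets; in set 2 it was set against the same controls as palbociclib. In set 1, 5 of 8 rose and none fell, where 16% of 12235 genes were called higher and 19.4% lower (35.4% in all). In set 2, 4 rose and 2 fell, where 30.1% of 12688 genes were called higher and 30.1% lower (60.1% in all). RRM1, DUT and TK1 rose in both sets, RRM2 and DTYMK were called in set 1 alone, and DCK, CTPS1 and DCTPP1 in set 2 alone. Differences between the sets were not tested, because the sets share no samples and were not normalised together.

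TK1 had 63.7, 63.6 and 55.7 CPM with trametinib in set 1, against 25.1, 27.0 and 27.8 CPM in SW48 controls (log2 fold change 1.20, SE 0.12, adjusted p = 0.00025). In set 2 it had 99.3, 104 and 96.8 CPM with trametinib, against 56.3, 62.8 and 54.2 CPM in controls (log2 fold change 0.77, SE 0.07, adjusted p = 1.6e-06). The TK1 groups did not overlap in either set, an arrangement (trametinib higher) that 24.1% of all genes tested showed in set 1 and 32.8% in set 2. DUT had 124, 119 and 118 CPM with trametinib in set 1, against 77.5, 73.1 and 62.9 CPM in controls (log2 fold change 0.77, SE 0.11, adjusted p = 0.0012). In set 2 DUT had 116, 110 and 107 CPM with trametinib, against 74.5, 73.1 and 78.5 CPM in controls (log2 fold change 0.54, SE 0.07, adjusted p = 1.4e-05). The DUT groups did not overlap in either set, beside the same shares of all genes as for TK1.

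RRM1 had 352, 330 and 329 CPM with trametinib in set 1, against 174, 193 and 183 CPM in SW48 controls (log2 fold change 0.89, SE 0.08, adjusted p = 0.00014). In set 2 it had 467, 453 and 441 CPM with trametinib, against 320, 327 and 343 CPM in controls (log2 fold change 0.44, SE 0.06, adjusted p = 2e-05). RRM2 was called in set 1 and not in set 2, a difference that was not tested. It had 137, 132 and 95.6 CPM with trametinib in set 1, against 35.2, 54.5 and 54.8 CPM in controls (log2 fold change 1.34, SE 0.21, adjusted p = 0.0018). In set 2 it had 84.8, 86.7 and 83.7 CPM with trametinib, against 90.7, 78.9 and 82.1 CPM in controls (log2 fold change 0.0005, SE 0.07, adjusted p = 1). The set 1 call was lost when all groups of the set shared 1 fit (1.33, adjusted p = 0.11), and the cause was not tested.

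DTYMK had 55.9, 53.2 and 55.1 CPM with trametinib in set 1, against 39.9, 32.8 and 32.3 CPM in SW48 controls (log2 fold change 0.66, adjusted p = 0.0056). In set 2 it had 49.6, 55.2 and 54.7 CPM with trametinib, against 53.5, 51.3 and 48.6 CPM in controls, and was not called (0.04, adjusted p = 0.68). DCK had 113, 114 and 106 counts with trametinib in set 2, against 70, 72 and 65 counts in controls (log2 fold change 0.69, SE 0.14, adjusted p = 0.00099). In set 1 DCK had 33 or 34 counts in each trametinib library, against 35, 30 and 47 counts in controls, where the libraries held 4063382 to 5211206 counts with trametinib and 6127950 to 8068003 counts in controls (log2 fold change 0.28, SE 0.31, adjusted p = 0.51).

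CTPS1 and DCTPP1 fell with trametinib in set 2. DCTPP1 had 73.9, 77.3 and 68.6 CPM with trametinib, against 113, 107 and 103 CPM in SW48 controls (log2 fold change -0.57, adjusted p = 1.4e-05). CTPS1 had 34.4, 37.9 and 36.9 CPM with trametinib, against 43.4, 41.3 and 45.9 CPM in controls (log2 fold change -0.28, adjusted p = 0.0067), a call that was lost when all groups of the set shared 1 fit (-0.26, adjusted p = 0.11). In set 1 their log2 fold changes were 0.18 (CTPS1, SE 0.14, adjusted p = 0.36) and 0.20 (DCTPP1, SE 0.16, adjusted p = 0.37). RRM2B fell in set 2, with 20.9, 19.4 and 18.7 CPM with trametinib and 26.0, 22.5 and 24.1 CPM in controls (-0.32, adjusted p = 0.015).

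**Figure D4:**
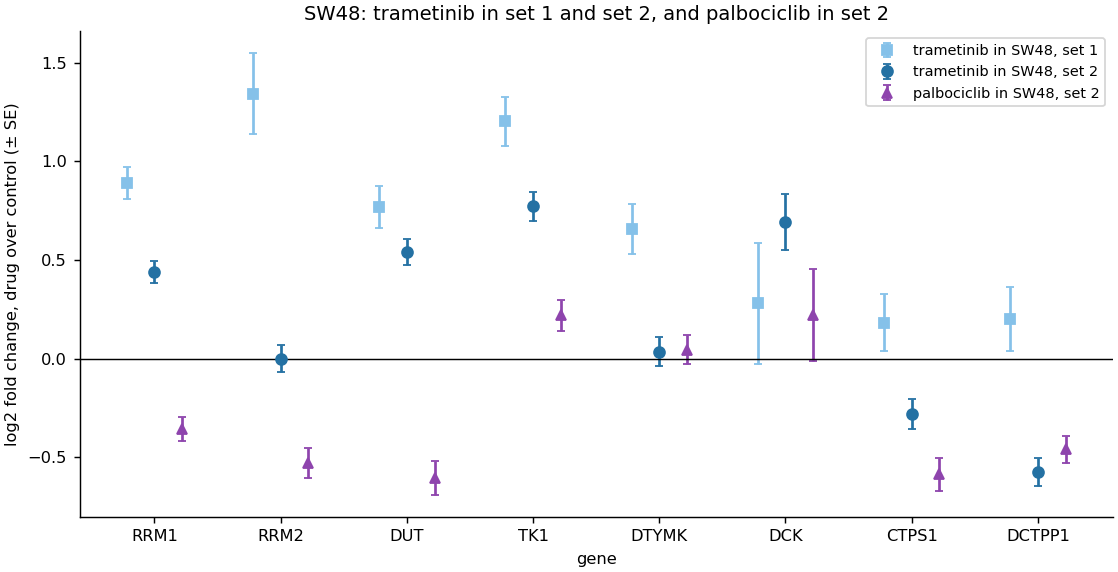
Log2 fold change (drug over control, with SE) of the 8 enzymes in SW48 with trametinib in set 1 (squares), trametinib in set 2 (circles) and palbociclib in set 2 (triangles). RRM1 and DUT lie above 0 with trametinib in both sets and below 0 with palbociclib, and RRM2 lies at 1.34 in set 1 and at 0.0005 in set 2 with trametinib; palbociclib and set 2 trametinib share controls.

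The genes around the pathway are given for each set of SW48 apart. All 10 G2/M genes rose in set 1 (median 1.09), with 492 ± 62.0 CPM of MKI67, a proliferation marker, in trametinib libraries, against 62.0 ± 16.3 CPM in controls (2.99). In set 2, 8 of 10 rose (median 0.26), with 388 ± 19.9 CPM of MKI67 in trametinib libraries, against 223 ± 11.8 CPM in controls (0.78). Of 18 replication genes, 11 rose and 2 fell in set 1 (median 0.56), and 6 rose and 8 fell in set 2 (median -0.08), where 30.1% of all genes were called in each direction. LIG1, the replicative DNA ligase, rose in both, with log2 fold changes of 1.57 in set 1 and 0.88 in set 2. MYC, a growth regulator that acts below MEK, had log2 fold changes of -1.64 in set 1 and -1.996 in set 2, and MTHFD2 had -2.10 in set 1 and -2.87 in set 2, all called. CDX2, the intestinal factor used as a line marker, averaged 365 CPM with trametinib in set 1, against 75.8 CPM in controls, and 255 CPM with trametinib in set 2, against 95.7 CPM in controls; its part in these results was not tested.

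Trametinib in SW620 gave no called enzyme in either set. In set 1, 0 of 8 and 0% of 13081 genes were called by edgeR (366 at an unadjusted p under 0.05, 14 by DESeq2). RRM2 had 77.8, 79.9 and 85.1 CPM with trametinib, against 73.6, 84.1 and 10.7 CPM in controls (log2 fold change 0.53, SE 0.64, adjusted p = 0.92). The value of 10.7 CPM was in control 3, and without that library the log2 fold change was 0.05 (adjusted p = 0.95). RRM1 had 401, 359 and 375 CPM with trametinib, against 374, 417 and 674 CPM in controls (log2 fold change -0.37, adjusted p = 0.92), with -0.06 without control 3. TK1 had 78.9, 77.4 and 91.3 CPM with trametinib, against 60.6, 80.1 and 124 CPM in controls (-0.09), with 0.24 without control 3. DUT had 312, 283 and 295 CPM with trametinib, against 297, 326 and 289 CPM in controls, and its log2 fold change was -0.04 with control 3 and -0.06 without it. For the others the value with control 3 and then without it was -0.39 and -0.15 (CTPS1), 0.43 and 0.24 (DCTPP1), 0.20 and -0.05 (DCK), and -0.09 and -0.01 (DTYMK). None of the 8 was called without control 3.

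In set 2, 0 of 8 enzymes and 0% of 12919 genes were called for trametinib in SW620 by edgeR, although 2204 genes had an unadjusted p under 0.05 and DESeq2 called 208. RRM2 had 83.4, 119 and 122 CPM with trametinib, against 77.1, 76.7 and 65.3 CPM in controls (log2 fold change 0.56, SE 0.15, adjusted p = 0.22). The groups did not overlap for RRM2, DUT or RRM1, each higher with trametinib, as for 11.1% of all genes. DUT had 541, 586 and 578 CPM with trametinib, against 459, 526 and 355 CPM in controls (0.34, adjusted p = 0.26). RRM1 had 616, 699 and 675 CPM with trametinib, against 574, 597 and 511 CPM in controls (0.24, adjusted p = 0.28), and was called with all groups in 1 fit (adjusted p = 0.047). RRM2 was called by DESeq2 (0.57, adjusted p = 0.034), without a filter on low counts (0.56, adjusted p = 0.024), with all groups in 1 fit (0.57, adjusted p = 0.0042) and without trametinib library 1 (0.73, adjusted p = 0.011), so the RRM2 call turned on the settings.

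The effects of trametinib in the 2 colorectal lines were then compared with each other. In set 1, 3 of 8 enzymes had a lower effect in SW620 than in SW48, where 6.73% of 14525 genes differed (2.78% lower and 3.95% higher in SW620). They were TK1 (-1.29, SE 0.32, adjusted p = 0.034), RRM1 (-1.25, SE 0.27, adjusted p = 0.019) and DUT (-0.79, SE 0.17, adjusted p = 0.02). The count was 0 without SW48 trametinib 1, SW620 trametinib 2, SW620 trametinib 3 or SW48 control 3, 1 without SW48 trametinib 2, SW48 trametinib 3 or SW48 control 2, and 5 without SW620 control 3. The TK1 call was lost when any 1 of 9 libraries was left out (all but the SW620 controls), the DUT call with any 1 of 7 left out and the RRM1 call with any 1 of 4 left out. The DUT call was also lost with no filter on low counts (-0.76, adjusted p = 0.06). Without SW620 control 3 the differences were -0.96 for TK1, -0.94 for RRM1 and -0.83 for DUT. In set 2, where 28.2% of 14027 genes differed (12.9% lower, 15.3% higher), 1 enzyme had a lower and 2 a higher effect in SW620. These were TK1 (-0.50, adjusted p = 0.033), RRM2 (0.58, adjusted p = 0.024) and DCTPP1 (0.52, adjusted p = 0.0035). Without SW48 trametinib 2, SW48 control 3 or SW620 control 3 of set 2, 1 of these 3 calls was left. The RRM2 call was lost when any 1 of 7 of the 12 libraries was left out (0.47 to 0.56), and the TK1 call with any 1 of 4 left out (-0.52 to -0.44).

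Trametinib and palbociclib were also set against each other within set 2, with doses not given. In SW48, 5 of 8 enzymes were higher with trametinib and none lower, where 21% of 12807 genes were called higher (41.9% in all). In SW620, 5 of 8 were higher and none lower, where 15.9% of 13232 genes were called higher (32.7% in all). DUT, RRM1, TK1 and RRM2 were higher with trametinib in both lines, but the TK1 call in SW620 was lost without trametinib library 2 (0.41, adjusted p = 0.067) or palbociclib library 1 (0.44, adjusted p = 0.062). DUT led, with 1.14 in SW48 (SE 0.08, adjusted p = 2.1e-07) and 1.53 in SW620 (SE 0.09, adjusted p = 7.1e-06). In SW620 DUT ranked 13081 of 13232 genes, counted from the lowest log2 fold change. RRM1 was at 0.80 in SW48 and 0.69 in SW620, RRM2 at 0.53 and 0.69, and TK1 at 0.55 and 0.51, in the same order of lines. CTPS1 was higher in SW48 (0.31, adjusted p = 0.0098), a call lost when 1 fit held all groups (0.32, adjusted p = 0.079), and DTYMK in SW620 (0.51, adjusted p = 0.0034). DCTPP1 was called in neither (-0.11 in SW48, adjusted p = 0.20; -0.12 in SW620, adjusted p = 0.36). Replication genes were higher with trametinib in 17 of 18 cases in SW48 and 15 of 18 in SW620, and G2/M genes in 10 of 10 in each.

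The control lines of set 2 differed in every tested enzyme, as in nearly all genes. An F test over the 6 lines called 8 of 8 enzymes, where 97.1% of 15211 genes were called, so these calls say little of the enzymes as such. With 1 library left out the count of enzymes called was 7 to 8. DUT had the widest range, with 447 ± 86.0 CPM in SW620 and 75.3 ± 2.80 CPM in SW48, a 5.93-fold span. MKN-45 came next for DUT at 293 ± 67.5 CPM, then NCI-N87 (249 ± 10.0), BT-474 (240.2 ± 6.53) and BT-20 (130 ± 9.10). The neighbours MKN-45 and NCI-N87, and NCI-N87 and BT-474, were not called different for DUT (adjusted p = 0.16 and 0.74), while the other neighbours were. The narrowest called range was that of DCK, from 10.2 ± 0.817 CPM in SW620 to 4.76 ± 1.30 CPM in BT-20, and no 2 neighbouring lines were called different for DCK.

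SW620 was highest for 6 of the 8 enzymes, and BT-20 was lowest for 6. RRM1 was at 561 ± 44.6 CPM in SW620, then 369 in NCI-N87, 330 in SW48, 302 in BT-474, 254 in MKN-45 and 238 ± 5.10 CPM in BT-20. Of the RRM1 neighbours, SW620 and NCI-N87 (adjusted p = 6e-06) and BT-474 and MKN-45 (adjusted p = 0.015) were called different. RRM2 was highest in MKN-45 (105 ± 6.22 CPM) and lowest in BT-20 (38.5 ± 1.76 CPM), and MKN-45 and BT-20 were called different from their neighbours NCI-N87 (adjusted p = 0.0071) and SW620 (adjusted p = 7.2e-08). Among the 4 lines between, NCI-N87, SW48, BT-474 and SW620 (84.8 to 73.0 CPM), no neighbours were called different, while SW620 was called lower than NCI-N87 (log2 difference -0.24, adjusted p = 0.029). The same SW620 libraries were thus at rank 1 of the lines for RRM1 and rank 5 for RRM2. TK1 was highest in SW620 (93.0 ± 7.84 CPM) and lowest in BT-20 (31.4 ± 1.86 CPM), with MKN-45, NCI-N87, BT-474 and SW48 between at 71.8 to 57.7 CPM and no call between neighbours among those 4.

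DTYMK was at 116 ± 17.1 CPM in SW620 and 72.8 ± 8.57 CPM in MKN-45, with BT-474, NCI-N87 and SW48 at 55.6 to 51.1 CPM, not called different from their neighbours among those 3, and BT-20 at 41.8 ± 4.20 CPM. CTPS1 was at 69.9 ± 6.07 CPM in SW620, with MKN-45 and SW48 at 45.8 and 43.5 CPM and BT-474, BT-20 and NCI-N87 at 26.9 to 22.4 CPM. Neighbours within each of these 2 runs of CTPS1 were not called different. DCTPP1 had its own order, with MKN-45 at 138 ± 7.004 CPM, SW48 at 108 ± 5.02 CPM, SW620 at 86.7 ± 3.08 CPM, BT-474 and NCI-N87 at 58.7 and 55.6 CPM (adjusted p = 0.52) and BT-20 at 45.8 ± 1.93 CPM. SW48, lowest of all lines for DUT, was second for DCTPP1.

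**Figure D5:**
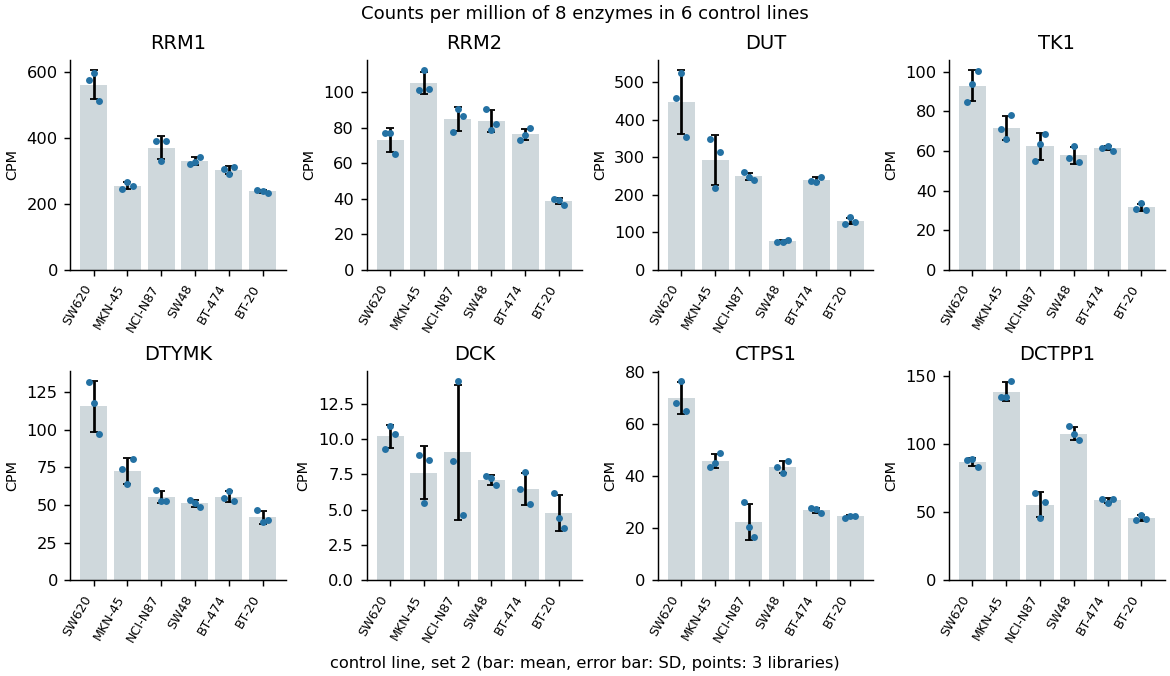
CPM of the 8 enzymes in the controls of the 6 lines of set 2; bars are means, error bars are SDs and points are the 3 libraries of a line. SW620 is highest in 6 panels, BT-20 is lowest in 6, and DUT spans 447 CPM in SW620 to 75.3 CPM in SW48.

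The genes whose levels went most like each enzyme were ranked by Pearson's r of log2 CPM over the 54 libraries, each centred on the mean of its line and set, among 7491 genes whose mean log2 CPM reached 4. The points share lines, controls and library depth and include the BT-474 libraries, where most enzymes differed most between drug and control, so these values are descriptions. DUT was most like NUF2 (r = 0.970), a kinetochore protein, then UBE2C and FANCI. TK1 was most like PTTG1 (r = 0.974), the securin, then CDCA3 and ASF1B. RRM1 was most like CKAP2L (r = 0.945), FOXM1 and RAD51AP1, and RRM2 most like CDKN3 (r = 0.939), ANLN and PBK. DTYMK was most like UBE2C (r = 0.860), TROAP and MYBL2.

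The cytidine enzymes had lower r with their closest genes, none of which is named above for the other enzymes. Whether these genes differ in kind from those was not tested. CTPS1 was most like PSMA7 (r = 0.789), a proteasome subunit, then POLE3 and MCM4. DCTPP1 was most like PNO1 (r = 0.770), a ribosome assembly factor, then TOMM40 and BOLA3. DCK, near the low end of measurable counts, was most like GNAS (r = 0.671), then CENPA and KPNA2. Among the enzymes themselves, r was 0.891 for TK1 with RRM1, 0.878 for DUT with TK1 and 0.868 for DUT with RRM1, but 0.551 for the 2 reductase subunits. SW620 control 3 of set 1, lowest of its group for RRM2 (10.7 CPM) and highest for RRM1 (674 CPM), enters each r. Its part in them was not tested. DCTPP1 had r of 0.0464 with RRM1, 0.0785 with TK1 and 0.521 with RRM2.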

How the data were processed

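RNA of 54 samples was extracted with Trizol, and 500 ng of each was made into Lexogen QuantSeq libraries, per the labels' protocols. Reads were trimmed with Trimmomatic, aligned with STAR to hg38 and counted with featureCounts, per the submitters' processing notes; the sources used here do not give versions, annotation or strand setting. The authors deposited raw counts per gene in 2 tables. The second repeats the 12 columns of the first with identical values, which were used once. In the first, 5 further entries count reads not assigned to a single gene (39.7% to 73.8% of a column) and were left out. Among them are ambiguous reads, 108069 to 266893 in a library, and whether TYMS reads were among these was not tested. Libraries held 3401565 to 12806042 counts, so low genes (TYMS, DCK) carry the largest counting error.

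The enzymes and gene lists were chosen with earlier results of these data known. Counts were filtered with filterByExpr (at least 10 counts, total 15), scaled by TMM and tested with edgeR 4.0.16 (glmQLFit, glmQLFTest; R 4.3.3), using only the groups compared, over all genes, with Benjamini-Hochberg adjustment and a threshold of 0.05. There were 10 drug comparisons, 2 of drug against drug, 5 of a drug effect between lines and 15 between control lines. CPM were scaled within each set, and log2 CPM had a prior count of 2. The edgeR test of each comparison was also run on simulated counts, while the other steps were not. Alternatives were DESeq2 1.42.0, its size factors, no filter, robust dispersion, all groups in 1 fit, a replicate block and each library left out. RRM2B, E2F1, MYC, MKI67, ENOSF1 and the line markers were chosen by hand. Other genes given with values, besides the enzymes, are up to 3 called ones per list and comparison with the largest fold change, and the 3 most correlated genes per enzyme. Not every gene that this rule names is reported here. Promoters are from RefSeq (GRCh38.p14), and gene positions and exons from GENCODE 29 (hg38).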

Additional observations from a re-analysis of the deposited data

Results flagged for a closer look

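Each value here is the effect of 1 drug in 1 line minus its effect in another line of the same tissue, on the log2 scale, and each passed edgeR's test of that difference. The afatinib effect, BT-474 minus BT-20, differed for 7 enzymes. The value was -3.68 for DUT, from -3.64 in BT-474 and 0.02 in BT-20. TK1 gave -2.87 (-2.74 in BT-474, 0.11 in BT-20) and RRM2 gave -2.62 (-2.49 in BT-474, 0.12 in BT-20). RRM1 gave -1.46, DTYMK -1.42 (adjusted p = 0.00023), CTPS1 -1.25 (-0.85 in BT-474, 0.38 in BT-20) and DCTPP1 -0.38 (adjusted p = 0.02). The DCTPP1 call was lost under 3 settings, at -0.37 (no filter), -0.35 (DESeq2) and -0.36 (all groups in 1 fit), and when any 1 of 4 BT-474 libraries was left out (afatinib 1 and 3, controls 1 and 3; -0.35 to -0.31).

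The palbociclib effect, SW620 minus SW48 in set 2, was lower in SW620 for DUT (-0.55, adjusted p = 0.025), DTYMK (-0.51, adjusted p = 0.012) and TK1 (-0.45, adjusted p = 0.016). It was higher in SW620 for CTPS1 (0.60), DCTPP1 (0.54) and RRM2 (0.43, adjusted p = 0.022). The RRM2 call was lost with all groups in 1 fit (0.39) and when any 1 of 4 libraries was left out (0.33 to 0.40), and the DTYMK call with all groups in 1 fit (-0.56, adjusted p = 0.06). TK1 was at -0.24 in SW620 and 0.22 in SW48, on opposite sides of 0.

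The trametinib effect, SW620 minus SW48, gave -1.29 for TK1, -1.25 for RRM1 and -0.79 for DUT in set 1. In set 2 it gave -0.50 for TK1, 0.58 for RRM2 and 0.52 for DCTPP1. The TK1 call was lost when any 1 of 9 libraries of set 1 was left out (adjusted p = 0.066 to 0.087) or any 1 of 4 of set 2 (adjusted p = 0.051 to 0.075), and the RRM2 call of set 2 when any 1 of 7 was. In set 1 the DUT call was lost with any 1 of 7 left out or with no filter (-0.76, adjusted p = 0.06). The RRM1 call of set 1 was lost with any 1 of 4 left out. The library in set 1 that stood apart, SW620 control 3, enters the 3 set 1 values, and without it they were -0.96, -0.94 and -0.83 in the same order, all still called. Without it 5 enzymes were called for this difference in set 1, and 0 for trametinib against control in SW620. Its part in the fit that held all groups of set 1 was not tested.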

How the results depend on the processing

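The fit with the replicate number as a block moved none of 109 results across the threshold or 0 (8 enzymes called in BT-474 with afatinib, DUT at -3.64 there). The numbers did not pair the samples: correlations of same-numbered deviations ran from -0.22 to 0.22, and in no comparison were all 3 pairs over 0.1. Of the 109 results, 108 kept their direction and call with DESeq2 size factors, 106 with DESeq2, 102 with no filter, 99 with all groups in 1 fit and 109 with robust dispersion, and 689 of 768 did so with 1 library left out; the cause of the changes was not tested. Under other settings than leaving out a library, the direction turned for 4 values, none of them called. RRM2 with trametinib in SW48, set 2, was at -0.001 with DESeq2 or its size factors and at -0.01 with no filter. With no filter RRM1 was at -0.003 and TK1 at -0.004 with afatinib in NCI-N87, and with all groups in 1 fit CTPS1 was at -0.02 with palbociclib in SW620. For trametinib in SW620, set 2, 0 enzymes were called at first, 1 with no filter or DESeq2, 2 with all groups in 1 fit, and 0 to 1 with a library left out. The trametinib difference between lines had 0 to 5 calls in set 1 and 1 to 3 in set 2 with a library left out.

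With each library left out in turn, values that changed sign ranged as follows. With afatinib in NCI-N87 they were -0.04 to 0.39 (CTPS1), -0.03 to 0.20 (DCTPP1), -0.36 to 0.12 (DTYMK), -0.07 to 0.05 (RRM1), -0.11 to 0.09 (RRM2) and -0.10 to 0.08 (TK1). In MKN-45 they were -0.09 to 0.02 (CTPS1) and -0.02 to 0.07 (RRM1), and in BT-20 -0.004 to 0.08 (DCTPP1), -0.23 to 0.17 (DTYMK) and -0.06 to 0.10 (DUT). With trametinib in SW48, set 2, they were -0.005 to 0.09 (DTYMK) and -0.05 to 0.05 (RRM2). In SW620 they were -0.05 to 0.40 (DCK), -0.06 to 0.03 (DUT) and -0.29 to 0.24 (TK1) in set 1, and -0.09 to 0.11 (DTYMK) in set 2. With palbociclib in SW620 they were -0.05 to 0.06 (CTPS1). None of these was called. Low counts of TYMS and DCK and 3 libraries a group limit what could be detected.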

Other observations

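Among the salvage, turnover and reductant genes with the largest called changes, which were named for that size, NUDT1, which hydrolyses oxidised purine dNTPs, rose in SW48 with palbociclib (log2 fold change 2.46, adjusted p = 4e-06) and with trametinib (1.65 in set 1, 3.19 in set 2), and fell in BT-474 with afatinib, to 5.58 ± 1.99 CPM, against 48.5 ± 12.8 CPM in controls (-3.11, adjusted p = 8.9e-07, edgeR, n = 3 each). SAMHD1, the dNTP hydrolase, rose with trametinib in SW48, set 1 (1.60, adjusted p = 0.015) and fell with palbociclib in SW620 (-0.47, adjusted p = 0.024). GLRX, the glutaredoxin that can reduce ribonucleotide reductase, rose with palbociclib in SW48 (1.72) and in SW620 (0.80). It rose with trametinib in SW48 as well (1.07 in set 1, 1.67 in set 2). TXNRD1, the thioredoxin reductase, fell with trametinib in SW48 (-1.58 in set 1, -1.10 in set 2).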
